A study of Mus musculus with 4 samples.

Results

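Of the 17230 genes in the count table, 10 that encode collagen-modifying enzymes and chaperones were followed. They were chosen by name for their roles, with earlier results of these data known. Among them were the lysyl hydroxylases Plod1 and Plod2, the prolyl hydroxylase subunits P4ha1 and P4ha2 and the prolyl 3-hydroxylation cofactor Crtap. The others were the chaperones Serpinh1, Fkbp10 and Fkbp14, the procollagen proteinase Bmp1 and the crosslinking enzyme Lox. All 10 had a row and passed the low-count filter, among 14330 genes that did. They were measured by bulk RNA sequencing in sorted cells of the mouse femur at postnatal day 21, with 2 libraries in each of 2 groups. All mice carried 1 Cxcl12(GFP/+) allele, which reports Cxcl12 expression, and 1 R26R(tdTomato/+) allele, a reporter that Cre switches on for good. Hes1-derived cells came from mice that also carried Hes1(CreER/+), and Fgfr3-derived cells from mice that also carried Fgfr3-iCreER, and both were given tamoxifen in 1 dose, on embryonic day 12.5. Cre was driven by Hes1 in the first group and by Fgfr3 in the second. The series title speaks of CAR cells derived from fetal perichondrium and from chondrocytes, where CAR stands for CXCL12-abundant reticular, a stroma of the marrow that supports blood formation. Whether a library came from 1 mouse or several is not given in the sources used here. The p-values therefore take the library as the unit, with an error partly shared across genes. The series design and the cell type label name a sort on GFP and tdTomato together, the extraction text tdTomato alone. The Cre allele and the origin of the cells cannot be told apart in this design.

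Collagen is modified heavily before and after it leaves the cell. In the endoplasmic reticulum, prolyl hydroxylases make the triple helix stable, lysyl hydroxylases prepare the lysines that later form crosslinks, and HSP47 (from Serpinh1) and FK506-binding proteins assist folding and transport. Outside the cell, procollagen proteinases cut off the propeptides and lysyl oxidases start the crosslinks, and defects in many of these genes cause brittle bone or connective tissue disease.

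All 10 genes were lower in the Hes1-derived than in the Fgfr3-derived libraries. Plod2, Bmp1, Fkbp10, P4ha2, Fkbp14, Serpinh1 and Lox fell, by 4.22-fold for Plod2 at one end and 2.38-fold for Lox at the other. Crtap, Plod1 and P4ha1 had fold differences of 2.02, 1.78 and 1.76 and did not pass the test. So 7 of 10 passed as lower and 0 as higher, also 0 at an unadjusted p under 0.05 and by DESeq2 and limma (edgeR's quasi-likelihood test, Benjamini-Hochberg adjusted p under 0.05), where 6.56% of all tested genes passed as lower. Both Hes1-derived libraries lay below both Fgfr3-derived libraries for 10 of 10 genes, as they did for 32.1% of all tested genes. The median log2 fold change of the 10 was −1.41, and that of all tested genes −0.02. DESeq2 called 10 of 10 lower, against 10.9% of all genes. The count of 7 became 3 without replicate 3 of the Hes1-derived group and 4 without replicate 2 of the Fgfr3-derived group, and Plod2, P4ha2 and Bmp1 passed in each of these. It became 0 when the libraries were scaled to stroma genes or to eGFP in place of all reads.

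**Figure D1:**
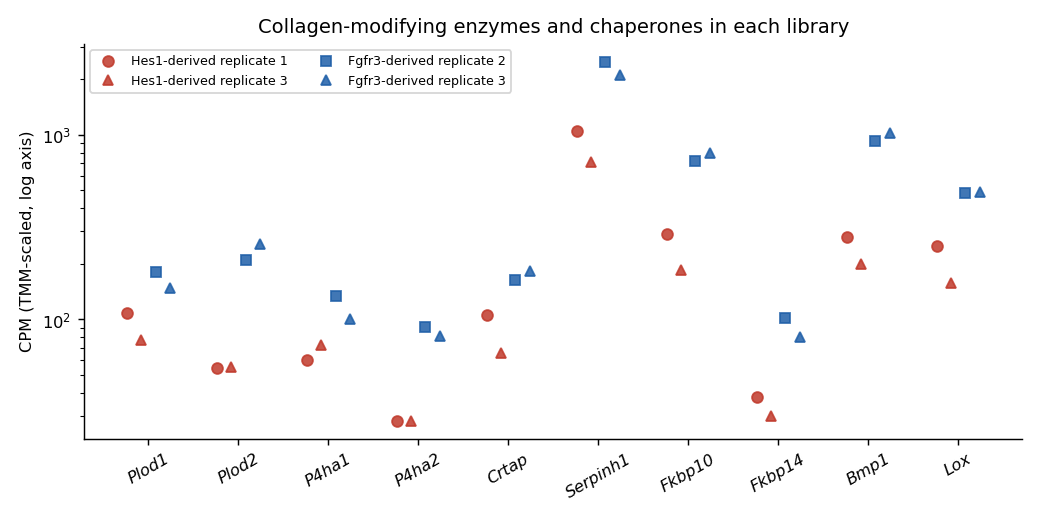
Level of each of the 10 genes in each library, in CPM (scaled by TMM, log axis); red symbols are Hes1-derived and blue symbols Fgfr3-derived libraries, and each symbol is 1 library. For every gene both red symbols lie below both blue ones, with the widest gap for Plod2 and Bmp1 and the narrowest for Plod1 and P4ha1.

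The libraries held 22745128 to 26804832 counted reads. Levels are given in CPM, reads scaled to library size with TMM factors, and the 10 genes had between 642 and 62825 reads each in a library. The stromal markers Cxcl12 and Lpl, the most abundant of the 22 stroma genes listed, were high in all libraries. Marker genes of other cell types had reads too, and several of these lists differed between the groups. The counts of marker genes that passed stand beside 5.24% of all tested genes called higher and 6.56% called lower. Of pan-leukocyte genes 10 of 15 tested were higher in the Hes1-derived libraries, with a summed level of 7215 to 8406 CPM in Hes1-derived and 2106 to 4436 CPM in Fgfr3-derived libraries, led by Arhgdib and Coro1a. B lymphocyte genes were higher for 13 of 14 (Cd79a and Cd79b the most abundant, summed level 2880.3 to 2938 CPM in Hes1-derived and 720.2 to 820.0 CPM in Fgfr3-derived libraries) and erythroid genes for 10 of 11 (Alas2 and Slc4a1, 5014 to 8735 CPM in Hes1-derived and 1366 to 2028 CPM in Fgfr3-derived libraries). By edgeR 1 of 12 neutrophil genes (Ngp and Ltf the most abundant) was higher, a share near that of all genes. Their summed level was 27381 to 32239 CPM in Hes1-derived and 8880.0 to 21936 CPM in Fgfr3-derived libraries. All 12 had positive log2 fold changes (median 0.99). At an unadjusted p under 0.05, 5 were higher, and DESeq2 called 6 and limma-voom 3 higher. Of endothelial genes (Eng, Pecam1) edgeR also called 1 of 10 higher, with 181 to 194 CPM in Hes1-derived and 138 to 151 CPM in Fgfr3-derived libraries. Of these, 8 had positive and 2 negative log2 fold changes. At an unadjusted p under 0.05, 5 were higher and 1 lower, and DESeq2 called 3 higher and 0 lower. Macrophage genes (Lyz2, Vcam1) were higher for 3 of 12, with 6229 to 8067 CPM in Hes1-derived and 3242 to 4201 CPM in Fgfr3-derived libraries. In the other direction, osteoblast genes (Mmp13, Spp1) were lower for 9 of 13, with a summed level of 3187 to 3891 CPM in Hes1-derived and 24962 to 25371 CPM in Fgfr3-derived libraries, and stroma genes for 4 of 22, with 13454 to 20135 CPM in Hes1-derived and 20186 to 30313 CPM in Fgfr3-derived libraries. Of the osteoblast genes 12 had negative log2 fold changes and 1 a positive one (0.92), and of the stroma genes 19 were negative and 3 positive. Osteoclast genes (Mmp9, Ctsk) were lower for 2 and higher for 1 of 9, with 1400.1 to 1765 CPM in Hes1-derived and 3438 to 3439 CPM in Fgfr3-derived libraries. Chondrocyte genes (Comp, Sox9) passed for 0 of 9 by edgeR, DESeq2 and limma (1 lower at an unadjusted p under 0.05) and their summed levels overlapped, 148 to 422 CPM in Hes1-derived and 98.7 to 757 CPM in Fgfr3-derived libraries, and skeletal muscle genes (Des, Mylpf) for 0 of 4 by the same tools (1 higher at an unadjusted p under 0.05), with 12.9 to 26 CPM in Hes1-derived and 11.6 to 12.6 CPM in Fgfr3-derived libraries. Among marker genes with a row, Calcr of the osteoclast list was at 0 in 3 libraries, and Acta1 and Myh1 of the muscle list in 1 and 2. Vcam1 stands in both the stroma and the macrophage list. In bulk RNA, fewer cells of a type and less RNA per cell cannot be told apart. Whether reads of a marker gene came from other cells or from the stroma cells themselves was not tested. The part of other cells in the differences of the 10 genes was not tested beyond the scalings given further on.

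Of the lysyl hydroxylases, Plod2 passed the edgeR test and Plod1 did not. Plod2 encodes LH2, which hydroxylates lysines in the telopeptides, the ends of the collagen chain where crosslinks start. It stood at 54.8 CPM (replicate 1) and 55.5 CPM (replicate 3) in the Hes1-derived group and 209 CPM (replicate 2) and 257 CPM (replicate 3) in the Fgfr3-derived group. The Hes1-derived libraries nearly coincided and lay far below both Fgfr3-derived ones, and the log2 fold change was −2.08 ± 0.21 (SE, adjusted p = 0.013). Plod2 ranked 14th by p among genes lower in Hes1-derived libraries. Plod1 encodes LH1, which acts on lysines within the triple helix, and stood at 108 CPM (replicate 1) and 77.2 CPM (replicate 3) in the Hes1-derived group and 181 CPM (replicate 2) and 147 CPM (replicate 3) in the Fgfr3-derived group. Its groups did not overlap, but they came closest of all 10 genes, with the lower Fgfr3-derived value 1.37 times the higher Hes1-derived one. The log2 fold change was −0.83 ± 0.24 (95% interval −1.40 to −0.26, adjusted p = 0.068), so Plod1 did not pass by edgeR. It did pass with DESeq2 (adjusted p = 0.025).

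The prolyl 4-hydroxylase enzyme pairs a catalytic alpha subunit, from P4ha1 or P4ha2, with the shared beta subunit from P4hb. P4ha2 was measured at 28.2 CPM (replicate 1) and 28.4 CPM (replicate 3) in the Hes1-derived group and 90.8 CPM (replicate 2) and 81.3 CPM (replicate 3) in the Fgfr3-derived group. The values within a group were close and the groups far apart, with a log2 fold change of −1.60 ± 0.21 (SE, adjusted p = 0.016). P4ha1 was measured at 60.2 CPM (replicate 1) and 72.5 CPM (replicate 3) in the Hes1-derived group and 134 CPM (replicate 2) and 99.97 CPM (replicate 3) in the Fgfr3-derived group. The lower Fgfr3-derived value was 1.38 times the higher Hes1-derived one, and with −0.82 ± 0.23 (95% interval −1.37 to −0.27, adjusted p = 0.065) it did not pass, except without Fgfr3-derived replicate 3 (adjusted p = 0.041) and with DESeq2. Crtap, the cartilage-associated protein that works with prolyl 3-hydroxylase and cyclophilin B in one complex, stood at 106 CPM (replicate 1) and 65.5 CPM (replicate 3) in the Hes1-derived group and 163 CPM (replicate 2) and 183 CPM (replicate 3) in the Fgfr3-derived group. It missed the threshold narrowly by edgeR (−1.02 ± 0.27, adjusted p = 0.052). Crtap passed in some other settings, among them DESeq2 (adjusted p = 0.0076), limma-voom (adjusted p = 0.04) and limma-trend (adjusted p = 0.048). It did not pass by edgeR with the libraries scaled to stroma genes or to eGFP (adjusted p = 0.59 and 0.8).

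The sequences just before the annotated starts of these genes were compared because P4ha1 and P4ha2 are textbook targets of the hypoxia-inducible factors. ACGTG is a form of the core of their response element. The form GCGTG was not searched or marked. RefSeq promoter windows (build GRCm38.p6) were at hand for 6 of the 10 genes in 7 windows, and their 250 bases before the start were searched on both strands for ACGTG and for the GC box GGGCGG. Plod2, Fkbp10, Bmp1 and Lox had no window. Of the 7 windows 3 held ACGTG (P4ha1, P4ha2 and Serpinh1), where 16.6% of 32851 windows of that length do. GGGCGG was in 4 of the 7, where 32.7% do. Because ACGTG was picked with P4ha1 and P4ha2 in mind, its count beside that share is not a test. The 3 windows with ACGTG are shown 5′ to 3′ on the gene's strand, with the core, on either strand, in capitals. A match is a description of the letters only. P4ha1 lies at chr10:59323046-59323295 on the plus strand and its core begins 16 bases before the start. P4ha2 lies at chr11:54100674-54100923 on the plus strand, before a RefSeq start inside the GENCODE gene, with the core 78 bases before the start. Serpinh1 lies at chr7:99353240-99353489 on the minus strand, with the core 171 bases before the start.
P4ha1: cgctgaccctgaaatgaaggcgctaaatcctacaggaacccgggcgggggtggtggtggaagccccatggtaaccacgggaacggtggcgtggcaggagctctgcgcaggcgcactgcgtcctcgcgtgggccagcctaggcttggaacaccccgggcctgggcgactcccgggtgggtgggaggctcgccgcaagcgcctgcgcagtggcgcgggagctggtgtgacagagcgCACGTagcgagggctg
P4ha2: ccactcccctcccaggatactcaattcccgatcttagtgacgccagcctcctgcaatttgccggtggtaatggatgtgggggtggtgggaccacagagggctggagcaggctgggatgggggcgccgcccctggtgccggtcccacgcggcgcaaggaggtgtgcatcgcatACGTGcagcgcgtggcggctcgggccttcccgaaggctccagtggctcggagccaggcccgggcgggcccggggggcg
Serpinh1: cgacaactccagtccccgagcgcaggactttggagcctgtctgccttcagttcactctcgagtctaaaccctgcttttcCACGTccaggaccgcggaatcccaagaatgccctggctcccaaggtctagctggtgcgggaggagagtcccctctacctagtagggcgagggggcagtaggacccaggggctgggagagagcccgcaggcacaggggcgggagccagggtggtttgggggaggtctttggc

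Among the chaperones, Serpinh1 encodes HSP47, a chaperone dedicated to collagen, and was the most abundant of the 10. It stood at 1044 CPM (replicate 1) and 708 CPM (replicate 3) in the Hes1-derived group and 2477 CPM (replicate 2) and 2103 CPM (replicate 3) in the Fgfr3-derived group. The lower Fgfr3-derived value was 2.02 times the higher Hes1-derived one, and the log2 fold change was −1.39 ± 0.32 (SE, adjusted p = 0.036). Fkbp10 encodes FKBP65, a prolyl isomerase and chaperone needed for telopeptide lysine hydroxylation, and stood at 289 CPM (replicate 1) and 184 CPM (replicate 3) in the Hes1-derived group and 723 CPM (replicate 2) and 796 CPM (replicate 3) in the Fgfr3-derived group. The groups were far apart, though the 2 Hes1-derived libraries differed more than the Fgfr3-derived ones, and the log2 fold change was −1.68 ± 0.29 (adjusted p = 0.02). Fkbp14, another isomerase of the endoplasmic reticulum, was measured at 37.9 CPM (replicate 1) and 29.9 CPM (replicate 3) in the Hes1-derived group and 102 CPM (replicate 2) and 80.8 CPM (replicate 3) in the Fgfr3-derived group (−1.43 ± 0.24, adjusted p = 0.019). Serpinh1, Lox and Fkbp14 lost their calls without Hes1-derived replicate 3 (adjusted p = 0.15, 0.15 and 0.08) and also when replicate 2 of the Fgfr3-derived group was left out (adjusted p = 0.1, 0.074 and 0.051), and Fkbp10 without Hes1-derived replicate 3 (adjusted p = 0.071).

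Of the enzymes that act outside the cell, Bmp1 encodes the proteinase that removes the C-propeptide of fibrillar procollagens and also activates lysyl oxidase. It stood at 278 CPM (replicate 1) and 199 CPM (replicate 3) in the Hes1-derived group and 921 CPM (replicate 2) and 1019.8 CPM (replicate 3) in the Fgfr3-derived group. No other gene of the 10 except Plod2 had so wide a gap, and the log2 fold change was −2.02 ± 0.27 (SE, adjusted p = 0.016), or 239 ± 56.2 CPM against 971 ± 69.5 CPM as mean and SD of 2 libraries. Lox, the lysyl oxidase that turns lysines into the reactive aldehydes of crosslinks, was measured at 250.4 CPM (replicate 1) and 158 CPM (replicate 3) in the Hes1-derived group and 481 CPM (replicate 2) and 489 CPM (replicate 3) in the Fgfr3-derived group. The Fgfr3-derived values nearly coincided and the Hes1-derived ones were spread, with a log2 fold change of −1.25 ± 0.28 (adjusted p = 0.033).

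Per kilobase of exon, which sets different genes on a common scale by annotated length, the order of the 10 genes was similar in all libraries. The length is the union of all annotated exons of a gene, so comparisons between genes depend on the annotation, not on the transcripts expressed. Serpinh1 was first, at 427 and 289.6 CPM per kb in Hes1-derived and 1014 and 861 CPM per kb in Fgfr3-derived libraries. Fkbp10 was second, at 98.5 and 62.8 against 246 and 271 CPM per kb. P4ha2 was last in every library, at 4.53 and 4.55 against 14.6 and 13 CPM per kb, and Fkbp14 was next to last. Between these, Crtap, Lox and Bmp1 took places 3, 4 and 5 in the Hes1-derived libraries, whereas Bmp1 moved to place 3 in the Fgfr3-derived ones. Crtap and Lox exchanged places between the Fgfr3-derived libraries, at 92.2 and 103 CPM per kb for Crtap and 101 and 102 CPM per kb for Lox, so their values overlapped. Plod2 stood below both Plod1 and P4ha1 in the Hes1-derived libraries, in place 8, and above both in the Fgfr3-derived ones, in place 6.

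Ratios between related genes within 1 library do not depend on scaling between libraries. Per kilobase of exon, the ratio of Plod1 to Plod2 was 1.57 (replicate 1) and 1.11 (replicate 3) in the Hes1-derived group and 0.692 (replicate 2) and 0.457 (replicate 3) in the Fgfr3-derived group. By this measure RNA of Plod1 exceeded that of Plod2 in both Hes1-derived libraries and was below it in both Fgfr3-derived ones. Protein was not measured. The ratio of P4ha1 to P4ha2 was 3.23 and 3.88 against 2.24 and 1.87, again without overlap, and P4ha1 had the higher RNA level throughout. By group means of log2 ratios, the Plod pair was shifted 2.35-fold and the P4ha pair 1.73-fold towards the first gene in Hes1-derived libraries. The part of RNA from other cells in these ratios was not tested. The ratio of Fkbp10 to Fkbp14 was 10.8 and 8.7 against 10 and 13.9, and its groups overlapped. The ratios are given as a description, with no test; an exact permutation test of 2 libraries against 2 has a smallest two-sided p of 0.33.

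**Figure D2:**
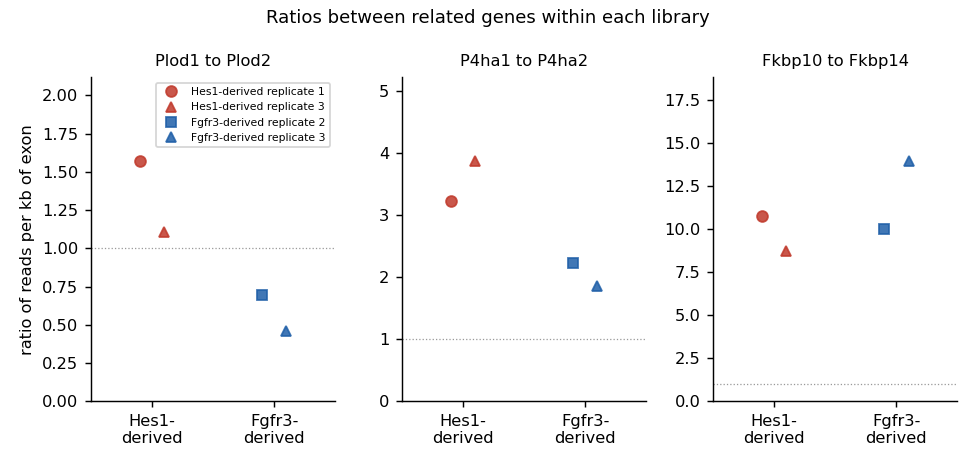
Ratio of reads per kilobase of exon between 2 related genes in each library, for Plod1 to Plod2, P4ha1 to P4ha2 and Fkbp10 to Fkbp14; each symbol is 1 library and the dotted line marks equal levels. The Plod ratio is above the line in Hes1-derived and below it in Fgfr3-derived libraries, and the Fkbp ratios overlap.

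Within a group the 10 genes did not move alike. Between Hes1-derived replicates 1 and 3, 7 genes were lower in replicate 3, by 21.0% for Fkbp14 up to 38.1% for Crtap, while Plod2, P4ha2 and P4ha1 were 1.25%, 0.468% and 20.5% higher. eGFP, the reporter of Cxcl12 expression, was 52.0% lower in that replicate. Between Fgfr3-derived replicates 2 and 3, 5 genes were lower and 5 higher in replicate 3, with P4ha1 25.3% lower and Plod2 23.2% higher at the ends, and eGFP 27.1% lower.

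The other genes of the collagen machinery, a list of 38 of which 37 had a row and 36 were tested, were lower for 12 and higher for 1, beside 6.56% and 5.24% of all tested genes, with a median log2 fold change of −0.99 (± below gives the SE of a log2 fold change). In lysine modification Plod3 (LH3), named after its value was seen, was lower (106 and 90.7 CPM, compared with 162 and 179 CPM, −0.80 ± 0.20, adjusted p = 0.048), while Glt25d1 (now Colgalt1), the collagen galactosyltransferase, had −0.30 ± 0.22 (adjusted p = 0.41), and 0.24 and 0.47 with the libraries scaled to stroma genes and to eGFP. In prolyl hydroxylation 3 of 7 were lower. Lepre1 (now P3h1), the catalytic partner of Crtap, stood at 84.7 and 55.2 CPM, compared with 180.0 and 219 CPM (−1.51 ± 0.27, adjusted p = 0.021), and Leprel4 (now P3h4) at 36.4 and 34 CPM, compared with 74.9 and 96.1 CPM (−1.28 ± 0.22). The low-abundance subunit P4ha3 also passed (−1.31 ± 0.31), whereas P4hb, shared with general disulfide formation, did not (−0.84 ± 0.26, adjusted p = 0.075), and neither did Ppib, the cyclophilin B of the Crtap complex (−0.38 ± 0.23); P4ha3 and Ppib were named after their values were seen.

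In folding and export 4 of 13 were lower and 1 higher. Creb3l1, a transcription factor that drives secretory genes in osteoblasts, fell 3.36-fold, with 23.6 and 21.6 CPM, compared with 60.8 and 90.8 CPM (−1.75 ± 0.26, adjusted p = 0.017). The coat subunits Sec24d (−1.23 ± 0.23) and Sec23a (−1.08 ± 0.21), which carry procollagen out of the endoplasmic reticulum, and the isomerase Fkbp7 (−1.37 ± 0.26) were lower as well. Klhl12, an adaptor that enlarges these coats, was the gene that rose, from 41.7 and 42.5 CPM in Fgfr3-derived to 83 and 76.1 CPM in Hes1-derived libraries (0.92 ± 0.20, adjusted p = 0.032). The abundant matrix protein Sparc, which also binds collagen, did not pass (−0.82 ± 0.34, adjusted p = 0.16). Of 5 crosslinking genes 3 were lower: the transglutaminase Tgm2 (−1.23 ± 0.21), Loxl3 (−1.23 ± 0.24) and, named after its value was seen, Loxl4 (−2.50 ± 0.54). Loxl1, the most abundant of them, did not pass (−1.08 ± 0.38, adjusted p = 0.11). Of 8 tested genes of propeptide cleavage only Pcolce, the enhancer of Bmp1, was lower by edgeR (279 and 128 CPM, compared with 533 and 703 CPM, −1.60 ± 0.39, adjusted p = 0.041, named after its value was seen), and the N-proteinase gene Adamts2 had −1.18 ± 0.33 (adjusted p = 0.061). The count of 12 lower genes became 0 when Hes1-derived replicate 3 was left out, 5 when Fgfr3-derived replicate 2 was, 20 with DESeq2, and 2 and 0 with the libraries scaled to stroma genes and to eGFP. The call of Klhl12 ended with both scalings and when Hes1-derived replicate 1, Hes1-derived replicate 3 or Fgfr3-derived replicate 2 was left out. With the scalings to stroma genes and to eGFP its log2 fold change was larger, at 1.49 and 1.74.

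**Figure D3:**
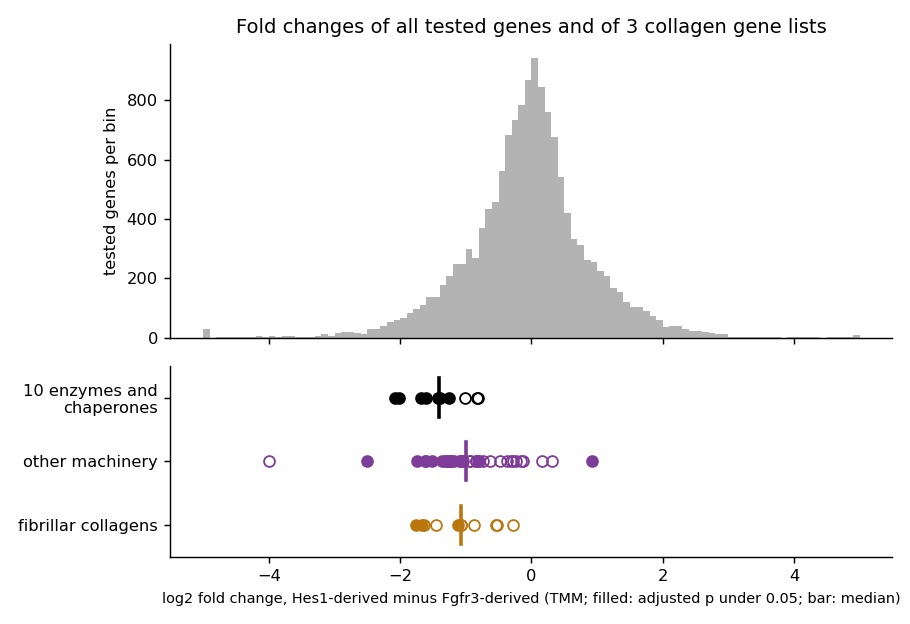
Above, a histogram of log2 fold changes (Hes1-derived minus Fgfr3-derived) of the 14330 tested genes, with values beyond the axis placed in the end bins; below, the 10 enzymes and chaperones, the 36 other machinery genes and the 11 fibrillar collagen genes on the same axis, filled where the adjusted p was under 0.05, with bars at the medians. The 3 medians lie at −1.41, −0.99 and −1.07, against −0.02 for all genes.

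The substrates of these enzymes, the fibrillar collagen chains, were lower for 3 of 11 genes and higher for 0 by edgeR, beside 6.56% and 5.24% of all tested genes, with a median of −1.07. At an unadjusted p under 0.05, 6 were lower and 0 higher, and DESeq2 and limma also called 0 higher. Col5a2 (−1.67 ± 0.22, adjusted p = 0.016), Col1a2 (−1.76 ± 0.41, adjusted p = 0.038) and Col5a3 (−1.13 ± 0.27, adjusted p = 0.042) passed, and Col1a1 did not (−1.64 ± 0.44, adjusted p = 0.056). Without Fgfr3-derived replicate 3 the count was 1, with DESeq2 and with limma-voom 5, and with either scaling to stromal reads 0. Both chains of type I collagen were highest in that replicate: Col1a1 stood at 1152 CPM (replicate 1) and 1823 CPM (replicate 3) in the Hes1-derived group and 3084 CPM (replicate 2) and 6210.4 CPM (replicate 3) in the Fgfr3-derived group.

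Set against type I collagen reads of the same library, 9 of the 10 genes did not separate the groups, 1 was higher and 0 were lower in both Hes1-derived libraries. On this denominator 76.4% of all tested genes were higher and 1.12% lower in both, and the denominator itself ranged from 124712 to 264405 reads within the Fgfr3-derived group. Reads of Serpinh1 per 1000 reads of Col1a1 and Col1a2 were 504 (replicate 1) and 273 (replicate 3) in the Hes1-derived group and 504 (replicate 2) and 208 (replicate 3) in the Fgfr3-derived group. Hes1-derived replicate 1 and Fgfr3-derived replicate 2 were nearly equal, and the spread within each group was wider than the difference between the groups. The exception was P4ha1, which was higher in both Hes1-derived libraries, with 29.1 (replicate 1) and 28 (replicate 3) in the Hes1-derived group and 27.2 (replicate 2) and 9.89 (replicate 3) in the Fgfr3-derived group, though 2 of these values nearly met. For Bmp1 the values were 135 (replicate 1) and 76.8 (replicate 3) in the Hes1-derived group and 187 (replicate 2) and 101 (replicate 3) in the Fgfr3-derived group. For Plod2 they were 26.5 (replicate 1) and 21.4 (replicate 3) in the Hes1-derived group and 42.4 (replicate 2) and 25.4 (replicate 3) in the Fgfr3-derived group. Bmp1 and Plod2 had the most negative differences of group means, −0.44 and −0.46 on the log2 scale. With reads of Col3a1 as the denominator, 8 of the 10 genes were lower in both Hes1-derived libraries, where 13.4% of all tested genes were lower and 29.2% higher in both, and Plod1 and P4ha1 overlapped.

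**Figure D4:**
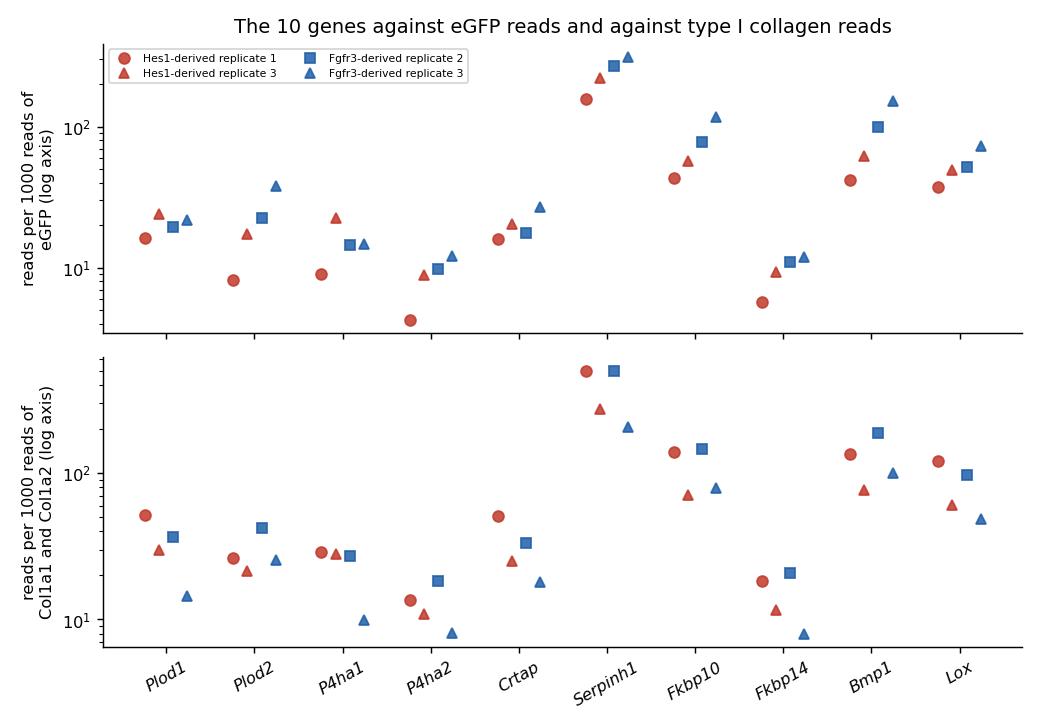
Reads of each of the 10 genes per 1000 reads of eGFP (upper panel) and per 1000 reads of Col1a1 and Col1a2 together (lower panel), on log axes; each symbol is 1 library. Against eGFP both red symbols lie below both blue ones for 7 genes, and against type I collagen the groups overlap for 9.

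Scaling the libraries to stromal reads in place of all reads made the differences of the 10 genes smaller. The 2 scales used, stroma genes and eGFP, are not independent. Cxcl12, whose expression eGFP reports, is the most abundant gene of the stroma list. With TMM scaling 4 of the 22 genes of that list were themselves called lower, beside 6.56% of all tested genes. eGFP itself stood at 6669 CPM (replicate 1) and 3204 CPM (replicate 3) in the Hes1-derived group and 9264 CPM (replicate 2) and 6754 CPM (replicate 3) in the Fgfr3-derived group (−0.70 ± 0.45, adjusted p = 0.35), and Cxcl12 at 7057 and 4179.8 CPM, compared with 9764 and 7028 CPM (−0.58 ± 0.41, adjusted p = 0.4, and 0.17 when scaled to eGFP). With the summed reads of the 22 stroma genes as the scale, all 10 log2 fold changes stayed negative (−0.16 to −1.52, median −0.84), but 0 of 10 passed by edgeR (3 at an unadjusted p under 0.05), where 0.956% of all genes passed as lower. With eGFP reads as the scale 9 stayed negative, P4ha1 turned to 0.11, the median was −0.62, and 0 of 10 passed by edgeR (0 at an unadjusted p under 0.05), where 0.133% of all genes did. These scalings moved the median of all genes up by 0.59 and 0.86 (log2) and the share of higher genes among the calls from 44.4% to 88.3% and 94.5%. The error widened as well: the SE of Plod2 went from 0.21 to 0.58 and 0.75. Plod2 (−1.52 and −1.25), Bmp1 (−1.50 and −1.27) and Fkbp10 (−1.17 and −0.96) kept the most negative values, and Plod1 (−0.26 and −0.04) and P4ha1 (−0.16 and 0.11) were nearest to 0.

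Counted directly, reads of Bmp1 per 1000 eGFP reads were 41.7 (replicate 1) and 62.1 (replicate 3) in the Hes1-derived group and 99.5 (replicate 2) and 151 (replicate 3) in the Fgfr3-derived group. Those of Plod2 were 8.22 (replicate 1) and 17.3 (replicate 3) in the Hes1-derived group and 22.5 (replicate 2) and 38.1 (replicate 3) in the Fgfr3-derived group. Both genes kept the groups apart. Those of Plod1 were 16.2 (replicate 1) and 24.1 (replicate 3) in the Hes1-derived group and 19.6 (replicate 2) and 21.8 (replicate 3) in the Fgfr3-derived group, with the groups interleaved. By this count the groups stayed apart for Plod2, P4ha2, Fkbp10, Fkbp14, Serpinh1, Lox and Bmp1, 7 of 10 and all lower in the Hes1-derived group, and overlapped for Plod1, P4ha1 and Crtap. On the same denominator 8.0% of all tested genes were lower in both Hes1-derived libraries and 46.0% higher in both.

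**Figure D5:**
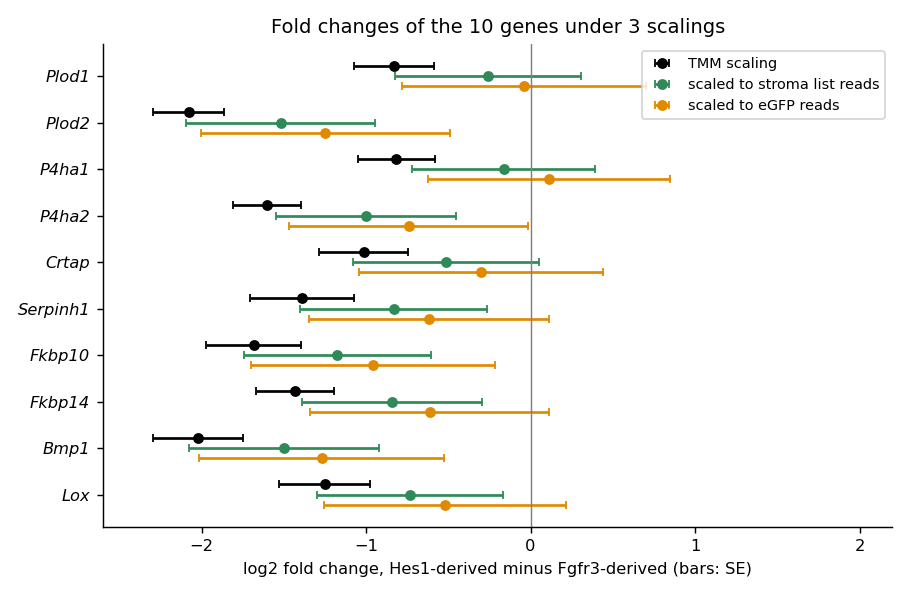
Log2 fold changes (Hes1-derived minus Fgfr3-derived, with SE) of the 10 genes by edgeR with TMM scaling (black), scaling to the summed reads of the stroma list (green) and scaling to eGFP reads (orange). Values move towards 0 and errors widen with the stromal scales, and P4ha1 crosses 0 with eGFP.

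General folding genes of the endoplasmic reticulum and hypoxia response genes were set beside the 10. Of 17 general folding genes 0 passed in either direction by edgeR, with a median of −0.45, and the 2 most abundant, the chaperones Hspa5 (−0.78 ± 0.30, adjusted p = 0.13) and Hsp90b1 (−0.71 ± 0.27, adjusted p = 0.13), did not pass. At an unadjusted p under 0.05, 7 of the 17 were lower and 1 higher. DESeq2 called 5 lower and 1 higher, limma-voom 2 and 1, and limma-trend 0 and 1. Of 21 hypoxia response genes 1 was called lower, a share near the 6.56% of all tested genes: Vegfa, the vascular growth factor, passed by edgeR (245 and 233 CPM, compared with 700.2 and 514 CPM, −1.35 ± 0.25, adjusted p = 0.024, named after its value was seen). None of them was called higher (0 of 21), with 4 lower and 0 higher at an unadjusted p under 0.05. DESeq2 called 2 lower and 0 higher, and limma-voom and limma-trend 1 and 0. Their median was 0.04, and the glycolytic genes Ldha (−0.09 ± 0.24) and Aldoa (0.26 ± 0.24) were the most abundant.

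The genes whose pattern over the 4 libraries was most like the mean pattern of the 10, by root mean square distance of centred log2 CPM, were Rgs5, Ift81, Tgfb2, Arhgef40 and St6galnac4, at distances of 0.0277 to 0.0476. Rgs5, a regulator of G protein signalling, stood at 8.58 and 6.93 CPM in Hes1-derived and 20.9 and 19.5 CPM in Fgfr3-derived libraries.

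On build GRCm38 (GENCODE M21) the 7 genes that fell lie at chr9:92542223-92608428, plus strand (Plod2), chr11:54100095-54131665, plus strand (P4ha2), chr11:100415697-100424824, plus strand (Fkbp10), chr6:54577604-54597308, minus strand (Fkbp14), chr7:99345376-99353239, minus strand (Serpinh1), chr18:52516067-52529867, minus strand (Lox) and chr14:70474558-70520234, minus strand (Bmp1). The other 3 lie at chr4:147909753-147936767, minus strand (Plod1), chr10:59323296-59373304, plus strand (P4ha1) and chr9:114375134-114390675, minus strand (Crtap). Some exon bases of Fkbp10, Fkbp14, Plod2 and Lox also belong to exons of a gene on the opposite strand: 193 bases with Nt5c3b, 208 with Plekha8, 346 with Gm38391 and 30 with AC161119.1. These are at most 6.58% of the exon bases of the gene, and since the strand setting of the counting is not given in the sources used here, reads there cannot be told apart.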

How the data were processed

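Bulk RNA sequencing gave 4 libraries, 2 Hes1-derived (replicates 1 and 3) and 2 Fgfr3-derived (replicates 2 and 3). The submitters' processing notes list the aligners TopHat2 2.0.13 and Bowtie2 2.2.1, the programs HTSeq, Cufflinks, Cuffdiff, DESeq2 and FastQC, and build mm10, without roles. Per the series design, mRNA was amplified with a SMARTer kit; the labels also mention single-cell loading, but each library is 1 column. The deposited counts are whole reads per gene symbol, the deposited signal is those counts times 1 factor per library, and the deposited log2 values are regularized log2 counts, as read from the file names and values.

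All genes passing the filter of edgeR 4.0.16 (minimum count 10, 14330 genes) were fitted in R 4.3.3 with TMM factors and robust quasi-likelihood tests, adjusted by Benjamini-Hochberg at 0.05, with 2 residual degrees of freedom before sharing across genes. Log2 fold changes subtract the Fgfr3-derived from the Hes1-derived group. The SE is their absolute value divided by the root of the F statistic, and ± beside CPM gives the SD (n = 2). Exon lengths were the union of all annotated exons of a gene in GENCODE M21 (16927 rows matched). DESeq2 1.42.0, limma 3.58.1 and the other alternatives appear in the closing section. The tests were also run on counts simulated with the dispersions of these data. That simulation held no shift in cell content, so it cannot show how the tests behave under one. Genes and lists were chosen with earlier results of these data known. Of 238 list entries 7 had no row and 8 matched by an older symbol.

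Named were the 10 genes, machinery genes that passed (at most 8 a direction, by p) and the most abundant of each role, collagens that passed (at most 6) with Col1a1 and Col1a2, the 2 most abundant of other lists, eGFP, Cxcl12 and the 5 most alike genes.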

Additional observations from a re-analysis of the deposited data

How the results depend on the processing

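No paired analysis was possible because the groups share only the replicate number 3. Of the 10 genes, Plod2, P4ha2 and Bmp1 were called lower in all settings but the scalings by stroma genes and by eGFP, under which the count of 7 became 0 and 0; leaving out 1 library gave 3 to 8. All genes called lower (940) became 137 and 19 with these scalings, 1557 with DESeq2 and 1664 at an adjusted p under 0.1, and 181 to 998 without 1 library. All genes called higher (751) became 324 with eGFP, 1429 with DESeq2, 1411 at 0.1 and 183 to 1225 without 1 library. Other machinery genes called lower (12) became 2 and 0 with the scalings, 20 with DESeq2, 19 at 0.1 and 0 to 12 without 1 library, and those called higher (1) became 0, 0 and 0 to 1. Fibrillar collagens called lower (3) became 0 and 0 with the scalings, 5 each with DESeq2, limma-voom and 0.1, and 1 to 3 without 1 library. The sign turned for P4ha1 (0.11) and Cxcl12 (0.17) with eGFP and for Glt25d1 with the stroma list (0.24) and eGFP (0.47). The P4ha1 to P4ha2 difference of 0.79 became 0.59 with the deposited regularized log2 values. The mean log2 difference of the 10 genes per type I collagen read, 0.18, was −0.37 to 0.73 without 1 library (−0.16 without Hes1-derived replicate 1, −0.37 without Fgfr3-derived replicate 3) and −1.10 per Col3a1 read. The causes of these changes were not tested. The lowest count of any of the 10 genes in a library was 642 reads (P4ha2), and reads without molecular identifiers are not independent molecules.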

Other observations

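Plod3 encodes LH3, a lysyl hydroxylase that also adds glucose to hydroxylysine. Per kilobase of exon, the ratio of Plod2 to Plod3 was 0.434 and 0.513 in the Hes1-derived group and 1.08 and 1.2 in the Fgfr3-derived group, so the groups did not overlap. For Lox to Loxl1, related oxidases, and for Bmp1 to Pcolce, a proteinase and its enhancer, the groups overlapped. The 10 genes together held 2256 and 1577 CPM in Hes1-derived and 5483 and 5258 CPM in Fgfr3-derived libraries. Serpinh1 alone made up 46.3% and 44.9% of their reads in the Hes1-derived and 45.2% and 40.0% in the Fgfr3-derived libraries.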
